A study of Mus musculus with 6 samples.

Results

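Ion channel genes were compared between injured colons of Gm31629-/- and WT mice. The members were found by symbol alone, as potassium channel genes (Kcn, letters and a digit), calcium channel genes (Cacna, Cacnb and Cacng) and voltage-gated sodium channel genes (Scn, digits and a or b). This rule took 131 of the 27546 genes listed, of which 92 were potassium, 26 calcium and 13 sodium channel genes. No measured value entered the rule. The name voltage-gated holds for only some of them, since the Kcn symbols also cover 14 inward rectifiers, 13 tandem-pore leak channels, 8 channels of the calcium- and sodium-activated families and 3 antisense RNAs of channel genes.

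The libraries were made from the colon of 3 Gm31629-/- mice and 3 WT littermates, 1 library per mouse. All 6 mice were labelled C57BL/6 (C57BL/6J in the methods), 8 weeks old, and killed on day 8 after 7 days on 3% dextran sulfate sodium (DSS, a polymer in the drinking water that injures the colonic epithelium). The mutants carry a deletion on chromosome 1 at the long noncoding RNA gene Gm31629, a model that is not limited to 1 cell type, and the level of Gm31629 itself was not analysed here. There were no untreated mice, so each comparison is between genotypes under injury. Values are FPKM, the fragments of a gene corrected for its exon length and for the depth of its library, which allows levels to be compared between genes.

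Ion channels are pores in the cell membrane, and the channel genes a tissue uses follow from the cell types it holds. In the colonic epithelium, basolateral potassium channels set the driving force for chloride and fluid secretion, and apical ones secrete potassium. In the muscle coat, L-type calcium channels carry the inward current of contraction, several potassium channels oppose it, and interstitial cells of Cajal pace it. Enteric neurons fire action potentials through voltage-gated sodium, calcium and potassium channels. These genes therefore report on the layers of the bowel wall as well as on the activity of each gene.

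The depth was recovered from the size of 1 fragment and lay between 18006000 and 18795100 fragments per library, with no gap between the groups. Values above 0 were listed for 22456 to 23600 genes in Gm31629-/- mice and for 19938 to 20118 genes in WT mice. The methods give the mice as male, but the sex-linked genes were as in males in only 1 library. Gm31629-/- mouse 1 had 9.27 FPKM of the Y-linked gene Ddx3y and 0.00606 FPKM of Xist, the RNA of the inactive X chromosome. The other 5 libraries went against the stated sex, with 0 FPKM of 4 Y-linked genes and 8.35 to 13.8 FPKM of Xist. By these genes sex and genotype were not balanced. Results without Gm31629-/- mouse 1 are given below for the counts of calls and for Kcnk1, Kcnma1 and Kcnip4. Markers of the bowel layers differed in level between the groups. All 15 epithelial markers were present in every library, and their summed level was 8236 to 9757 FPKM in Gm31629-/- mice and 13270 to 14498 FPKM in WT mice. The 12 smooth muscle markers summed to 1599 to 2596 FPKM in Gm31629-/- mice and to 16.1 to 43.7 FPKM in WT mice. None of these 12 was at 0 in all WT mice, but Myh11, the smooth muscle myosin heavy chain, had only 0.228 to 1.31 FPKM there, against 88.9 to 199 FPKM in the mutants. The 12 enteric neuron markers summed to 62.5 to 269 FPKM in Gm31629-/- mice and to 2.89 to 5.48 FPKM in WT mice, and Elavl4 was among those at 0 in all WT libraries. In bulk tissue, fewer cells of a type and less RNA per cell cannot be told apart.

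Most channel genes had a higher mean in Gm31629-/- mice, and 4 of the 6 potassium channel genes of the epithelial list were called lower. Of the 131 members, 42 passed a filter on low values (mean FPKM of at least 0.5 over the 6 mice) and were tested with limma on log2(FPKM + 1), where p was adjusted by Benjamini and Hochberg's method over the 14657 tested genes of the whole table. To be called, a gene needed an adjusted p under 0.05 together with a log2 fold change beyond 1 in size. By these thresholds 25 channel genes were called higher, 5 were called lower, and 12 were neither, while over all tested genes 18.4% were called higher and 4.64% lower. The median log2 fold change was 1.09 over the tested channel genes and 0.15 over all tested genes. Rescaling each library by its median ratio moved these medians to 1.03 and 0.017. Of all 131 members, on either side of the filter, 112 had a higher mean in the mutants. In 83 every mutant was above every WT mouse (31% of all listed genes), in 8 every mutant was below (12.6% of all listed genes), and in 40 the groups overlapped. In 21 of the 25 called higher, the WT mean was under 0.5 FPKM, so the gene passed the filter only through the mutants. Its group means had to differ in this direction, and the count of 25 is therefore a description. The p values printed below for these 21 genes add no support. The same holds for marker and partner genes with a WT mean under 0.5 FPKM. The 4 called genes with a higher WT mean were Cacna1h, Kcnh2, Kcnj8 and Cacna1b. Without Gm31629-/- mouse 1, 22 genes were called higher and 4 lower. Over the 6 fits that each left out 1 mouse, 22 of the called genes were called every time. Those that were not included Kcnk1, Kcnma1, Kcnn3, Cacna1b, Kcnip4, Kcnj10 and Cacna1d, of which Kcnn3, Kcnj10 and Cacna1d fell below the filter in at least 1 fit. Adding 1 FPKM shrinks the fold changes of rare transcripts, and 3 mice against 3 cannot reach an exact permutation p below 0.1 for any single gene.

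**Figure D1:**
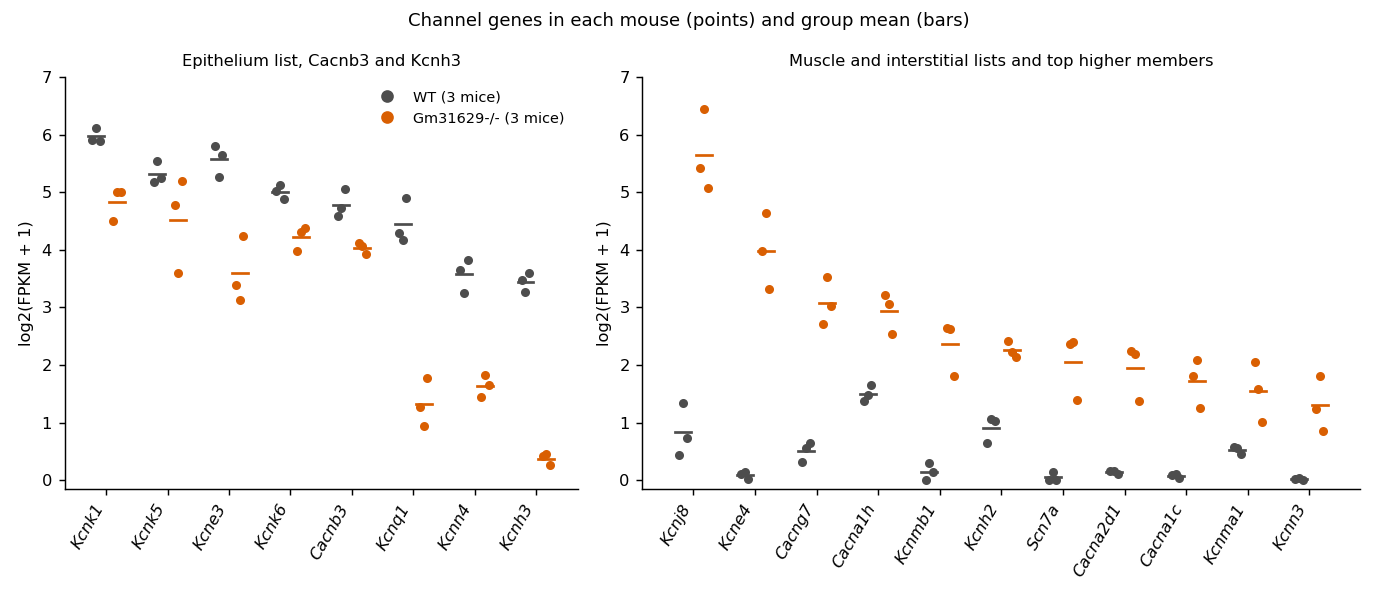
Levels of channel genes as log2(FPKM + 1) in each of the 6 mice (points, grey for WT and orange for Gm31629-/-), with the mean of each group as a short bar. Kcnk5 is the gene on the left whose groups overlap, and on the right the WT points of Kcne4, Scn7a, Cacna2d1, Cacna1c and Kcnn3 lie close to 0.

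The colonic epithelium list held Kcnq1, Kcne3, Kcnn4, Kcnk1, Kcnk5 and Kcnk6. All 6 had a lower mean in Gm31629-/- mice. Of these, 4 were called lower (4.64% of all tested genes), and 5 were lower without overlap (12.6% of all listed genes). The median log2 fold change of the list was -1.54, with single genes from -3.12 to -0.79. The summed level of the list was 75.6, 72.2 and 109.0 FPKM in Gm31629-/- mice 1 to 3 and 210.8, 211.3 and 215.1 FPKM in WT mice 1 to 3, a ratio of 2.48 in favor of WT. The summed epithelial markers differed in the same direction by a ratio of 1.57, and 5 of these 15 markers were called lower and none higher. Without overlap 10 were lower and 1, Tspan8, was higher, and 4 overlapped. Abundant markers weigh most in the sum, such as Krt8 with a mean of 2042 FPKM in the mutants and 4198 FPKM in WT mice. Epcam and Cdh1 had log2 fold changes of 0.005 and -0.04. Scaling every library to this sum moved the median of the list to -0.93 and that of all tested genes to 0.64. How far the sum measures epithelial content was not tested.

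Kcnq1 and Kcne3 form 1 channel, in which Kcnq1 (ENSMUSG00000009545, chromosome 7, 143106362 to 143427042 of GRCm38) is the pore of the cyclic AMP-regulated basolateral potassium current of crypts and Kcne3 (ENSMUSG00000035165, chromosome 7, 100176502 to 100184869) is the small subunit that keeps it open. Kcnq1 stood at 1.41, 0.927 and 2.43 FPKM in Gm31629-/- mice 1 to 3 and at 18.6, 17.0 and 28.9 FPKM in WT mice 1 to 3. Every mutant lay under every WT mouse, and the highest mutant was Gm31629-/- mouse 3. Kcnq1 fell by 3.12 on the log2 scale (SE, the standard error, 0.28, limma adjusted p = 0.000430), a 13.5-fold lower mean in the mutants. Kcne3 stood at 9.53, 7.74 and 18.0 FPKM in Gm31629-/- mice and at 54.8, 37.7 and 48.9 FPKM in WT mice. Again the groups did not overlap, and Gm31629-/- mouse 3 was nearest to WT. Its log2 fold change was -1.98 (SE 0.30, limma adjusted p = 0.00264). The pore therefore fell more than its subunit. The ratio of Kcne3 to Kcnq1 FPKM was 6.77, 8.35 and 7.41 in Gm31629-/- mice and 2.95, 2.22 and 1.69 in WT mice, without overlap, where 3 against 3 mice cannot give an exact permutation p below 0.1. With every library scaled to the epithelial markers, Kcnq1 fell by 2.61 (limma adjusted p = 0.000317) and Kcne3 by 1.36 (limma adjusted p = 0.00435). Kcnq1 shares 121 exon bases with its antisense RNA Kcnq1ot1, and the strand used in counting is not given in the sources used here. Over all members, 42 of 131 share exon bases with another gene, so their values can hold fragments of that gene. Kcnq1ot1 moved the other way at a low level, with 77, 55 and 26 fragments in the mutants and 9, 8 and 7 in WT mice (log2 fold change 2.52 and adjusted p = 0.00957 by voom, limma's fit to the fragments of all genes).

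Kcnn4 (ENSMUSG00000054342, chromosome 7, 24370263 to 24386690) encodes the intermediate-conductance calcium-activated potassium channel, the partner of calcium-driven secretion. It had 1.73, 2.55 and 2.14 FPKM in Gm31629-/- mice and 11.6, 8.50 and 13.1 FPKM in WT mice. The groups were well apart, with a log2 fold change of -1.93 (SE 0.20, limma adjusted p = 0.000682). It fell by 1.41 after scaling to the epithelial markers (limma adjusted p = 0.00191).

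The tandem-pore channels Kcnk1, Kcnk5 and Kcnk6 were the most abundant potassium channels of the WT colon besides Kcne3. Kcnk1 (ENSMUSG00000033998, chromosome 8, 125995170 to 126030685), a weakly rectifying leak channel, had 21.5, 31.0 and 31.1 FPKM in Gm31629-/- mice and 59.3, 68.2 and 58.6 FPKM in WT mice. The groups did not overlap, and Kcnk1 fell by 1.14 (SE 0.18, limma adjusted p = 0.00303). This call was past the fold threshold through Gm31629-/- mouse 1, without which Kcnk1 fell by 0.97 (limma adjusted p = 0.00326), and with epithelial marker scaling it fell by 0.50 (limma adjusted p = 0.0431). Kcnk6 had 14.9, 18.9 and 19.7 FPKM in the mutants and 31.4, 34.0 and 28.7 FPKM in WT mice, without overlap. Its log2 fold change of -0.79 passed on p (limma adjusted p = 0.00736) but not on size. Kcnk5, an acid- and volume-sensitive channel of the basolateral membrane, was 26.6, 11.0 and 35.6 FPKM in the mutants and 35.1, 45.8 and 36.9 FPKM in WT mice. Here Gm31629-/- mouse 3 lay within the WT range, and the genotypes could not be distinguished (log2 fold change -0.80, SE 0.39, limma adjusted p = 0.133). With epithelial marker scaling, Kcnk5 and Kcnk6 had log2 fold changes of -0.17 and -0.16 (limma adjusted p = 0.707 and 0.441).

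Outside this list, 1 channel gene was called lower. Kcnh3 (ENSMUSG00000037579, chromosome 15, 99224861 to 99242817), which encodes a voltage-gated potassium channel of the ether-a-go-go family known mainly from forebrain neurons, had 0.334, 0.363 and 0.198 FPKM in Gm31629-/- mice and 10.1, 8.59 and 11.1 FPKM in WT mice. The mutants were thus near 0 and the WT mice grouped closely, a 33.3-fold lower mean in the mutants (log2 fold change -3.07, SE 0.16, limma adjusted p = 0.000113). Kcnh3 passed the filter only through the WT mice, so its means had to differ and its p adds no support. It went opposite to most neural channels, and after scaling to the epithelial markers it fell by 2.69, where the same filter was kept and the p adds no support either. Cacnb3, a cytoplasmic beta subunit of calcium channels, had 16.3, 15.8 and 14.2 FPKM in Gm31629-/- mice and 22.9, 25.4 and 32.3 FPKM in WT mice. The groups did not overlap, but its log2 fold change of -0.75 was short of the fold threshold (SE 0.17, limma adjusted p = 0.0105), and with epithelial marker scaling it was -0.12 (limma adjusted p = 0.641).

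**Figure D2:**
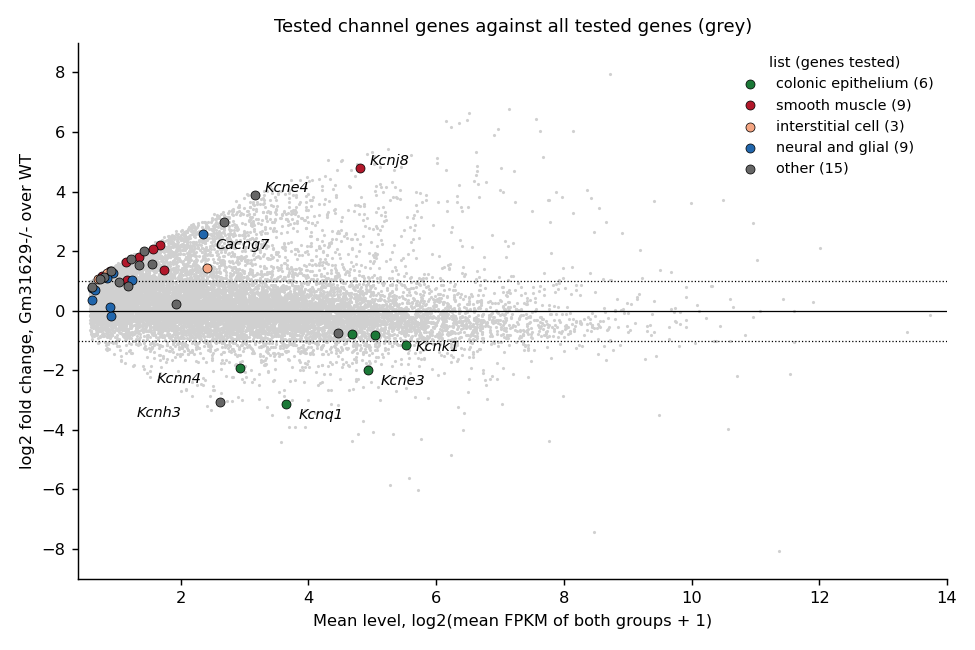
Log2 fold change of Gm31629-/- over WT (vertical axis) against the mean level, log2 of the mean FPKM of both groups plus 1 (horizontal axis), for all 14657 tested genes (grey) and the 42 tested channel genes (colored by list). The 6 epithelial genes (green) all lie under 0, and the channel genes called higher mostly lie at the left edge, where levels are low and the WT mean is near 0.

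The smooth muscle list held 13 genes, of which 12 were higher in every Gm31629-/- mouse than in every WT mouse (31% of all listed genes). The exception was Kcnk2, whose groups overlapped. Of the 13, 9 passed the filter and all 9 were called higher (18.4% of all tested genes), but 7 of these 9 had a WT mean under the filter. The median log2 fold change of the 9 was 1.64, with single genes from 1.02 to 4.80. The summed level of the list was 70.8, 115.4 and 48.3 FPKM in Gm31629-/- mice 1 to 3 and 1.76, 3.77 and 2.58 FPKM in WT mice 1 to 3, a ratio of 28.9. The smooth muscle markers moved with them, with 12 of 12 markers higher without overlap, 11 of 12 called higher, and a ratio of their summed levels of 72.6. Of these 12 markers, 4 had a WT mean under the filter. Scaling every library to the summed smooth muscle markers gave the list a median of -0.29 and all tested genes a median of -4.43. How far the amount of muscle in each piece of tissue accounts for the channel values was not tested beyond this scaling.

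The ATP-sensitive potassium channel of smooth muscle had the largest change among the channel genes on the log2(FPKM + 1) scale, though not with a pseudocount of 0.1 or as a ratio of means, where Kcne4 was ahead. Its pore gene Kcnj8 (ENSMUSG00000030247, chromosome 6, 142564837 to 142571614) had 41.7, 86.2 and 32.6 FPKM in Gm31629-/- mice and 0.361, 1.55 and 0.668 FPKM in WT mice. All mutants were far above WT, with Gm31629-/- mouse 2 the highest, and Kcnj8 rose by 4.80 on the log2 scale (SE 0.39, limma adjusted p = 0.000327). Its regulatory partner Abcc9, the sulfonylurea receptor of muscle, had 15.3, 25.4 and 5.64 FPKM against 0.0516, 0.245 and 0.0763 FPKM and was called higher as well (log2 fold change 3.66, limma adjusted p = 0.00131). The ratio of Kcnj8 to Abcc9 was 2.72, 3.40 and 5.79 in the mutants and 6.98, 6.31 and 8.76 in WT mice, so the partner was the larger in fold. Kcnj8 and Abcc9 are also known from pericytes, and the 6 endothelial markers, which mark the vessels, were all called higher. Of these 6, 4 had a WT mean under the filter and so had to differ in mean. The summed levels of the 6 were 32.7, 70.7 and 50.2 FPKM in Gm31629-/- mice and 2.04, 5.06 and 2.67 FPKM in WT mice. Gm31629-/- mouse 2, the highest for Kcnj8, was also the highest for the endothelial markers and not for the smooth muscle markers, which were highest in Gm31629-/- mouse 1. The part of vessel content in the Kcnj8 values was not tested.

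The large-conductance calcium-activated channel (BK) brakes contraction. Its beta1 subunit Kcnmb1 (ENSMUSG00000020155, chromosome 11, 33963013 to 33973641), which is restricted largely to smooth muscle, had 5.24, 5.18 and 2.51 FPKM in Gm31629-/- mice and 0, 0.225 and 0.102 FPKM in WT mice, an increase of 2.22 (SE 0.26, limma adjusted p = 0.000951). The pore gene Kcnma1, which epithelium and neurons use too, had 3.13, 2.01 and 1.01 FPKM in the mutants and 0.497, 0.474 and 0.364 FPKM in WT mice. It rose by 1.02 (SE 0.27, limma adjusted p = 0.0196). This call was kept in only 1 of the 6 fits that each left out 1 mouse, the fit without Gm31629-/- mouse 3. The change fell short of the fold threshold without Gm31629-/- mouse 1 (0.77, limma adjusted p = 0.0283) and with median ratio scaling (0.93). The ratio of Kcnmb1 to Kcnma1 was 1.67, 2.58 and 2.49 in the mutants and 0, 0.475 and 0.279 in WT mice, so by these values the muscle subunit differed more than the shared pore. The WT ratios are uncertain, since Kcnmb1 was at 0 in 1 WT mouse and near 0 in the others. Lrrc26, the gamma subunit of BK in secretory epithelium, was 73.8, 32.2 and 55.9 FPKM in the mutants and 67.7, 77.3 and 71.8 FPKM in WT mice, with overlap between the groups (log2 fold change -0.49, limma adjusted p = 0.199).

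The L-type calcium channel genes moved together. The pore Cacna1c (ENSMUSG00000051331, chromosome 6, 118587240 to 119196418) had 2.51, 3.26 and 1.39 FPKM in Gm31629-/- mice and 0.0587, 0.0734 and 0.0276 FPKM in WT mice (log2 fold change 1.64, SE 0.23, limma adjusted p = 0.00185). Its alpha2delta subunit Cacna2d1, which carries the channel to the membrane, had 3.72, 3.60 and 1.61 FPKM against 0.122, 0.116 and 0.0771 FPKM (log2 fold change 1.80, limma adjusted p = 0.00185). In both genes, Gm31629-/- mouse 3 was the lowest mutant and was still above every WT mouse. The beta subunit Cacnb2 did not pass the filter and had 356, 137 and 99 fragments in the mutants and 4, 2 and 0 in WT mice. It thus went the opposite way to the beta subunit Cacnb3.

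The voltage-gated potassium channels of muscle were less abundant than Kcnj8. Kcnh2, the ERG channel that shapes repolarization, had 4.37, 3.66 and 3.43 FPKM against 0.569, 1.08 and 1.04 FPKM (log2 fold change 1.35, SE 0.18, limma adjusted p = 0.00168). It was the list member with the highest WT mean. Kcnd3, which carries a transient outward current, had 2.56, 1.71 and 0.801 FPKM against 0.0282, 0.0174 and 0.0222 FPKM (log2 fold change 1.34, limma adjusted p = 0.00579). All mutants lay above all WT mice for both genes. Below the filter, Kcna5 had 29, 66 and 17 fragments in the mutants and 0, 1 and 2 in WT mice, and Kcnq5 had 92, 72 and 35 against 2, 0 and 0. Kcnk2, a stretch-activated leak channel, had 41, 22 and 5 fragments in the mutants and 0, 6 and 3 in WT mice, so Gm31629-/- mouse 3 fell inside the WT range and a difference was not detectable at this depth (limma's voom, adjusted p = 0.0697).

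The start regions of the listed genes were set beside these changes, because genes of 1 list moved together. RefSeq windows (GRCm38.p6) were matched for 96 of the 131 channel genes, and the 250 bases before the start are printed for 2 of the epithelial and 2 of the smooth muscle genes with the largest changes whose window does not run into the gene. They are given 5′ to 3′ on the strand of the gene, with the motif matches described next in capitals. Kcnn4 lies at chr7:24370013-24370262 on the plus strand, Kcnk1 at chr8:125994852-125995101 on the plus strand, Kcnj8 at chr6:142571615-142571864 on the minus strand, and Kcnmb1 at chr11:33962763-33963012 on the plus strand.
Kcnn4: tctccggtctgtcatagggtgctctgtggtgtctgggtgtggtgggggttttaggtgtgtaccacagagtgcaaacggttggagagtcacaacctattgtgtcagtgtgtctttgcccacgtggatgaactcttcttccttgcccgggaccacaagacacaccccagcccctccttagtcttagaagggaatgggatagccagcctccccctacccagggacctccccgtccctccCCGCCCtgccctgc
Kcnk1: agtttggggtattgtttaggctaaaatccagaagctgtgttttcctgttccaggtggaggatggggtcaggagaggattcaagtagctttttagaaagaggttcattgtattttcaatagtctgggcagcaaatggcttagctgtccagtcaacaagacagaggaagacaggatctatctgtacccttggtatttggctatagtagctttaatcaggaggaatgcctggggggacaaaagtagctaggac
Kcnj8: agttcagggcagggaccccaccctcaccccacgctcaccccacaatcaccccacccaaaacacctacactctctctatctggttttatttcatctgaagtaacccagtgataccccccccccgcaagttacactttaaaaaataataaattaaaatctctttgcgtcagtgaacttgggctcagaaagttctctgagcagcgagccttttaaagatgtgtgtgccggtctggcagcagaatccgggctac
Kcnmb1: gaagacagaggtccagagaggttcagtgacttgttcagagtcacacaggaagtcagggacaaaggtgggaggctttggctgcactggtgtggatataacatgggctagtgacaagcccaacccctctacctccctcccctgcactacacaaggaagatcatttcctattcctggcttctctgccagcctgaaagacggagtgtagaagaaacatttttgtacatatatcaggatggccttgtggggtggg

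Both strands of every window were searched for the CArG box (the site of serum response factor), the GC box (GGGCGG), the CCAAT box and the TATA box (TATAAA). In the 250 bases printed, the 1 match was a GC box in Kcnn4, and the windows held 6 CpG dinucleotides in Kcnn4, 0 in Kcnk1, 6 in Kcnj8 and 1 in Kcnmb1. Over all channel genes, the GC box was in 56 of 132 windows (42.4%, against 32.7% of the 32851 windows of all genes), the CCAAT box in 38 (28.8%, against 33.8%) and the TATA box in 5 (3.79%, against 12.4%). The CArG box was in none of the 132 windows and in 1.47% of all windows. It was also in none of the 18 windows of the smooth muscle list, which says only that these letters are not in this stretch. The median number of CpG dinucleotides was 6 per window over all genes, 6 in the epithelial list, 10 in the smooth muscle list and 8 in the neural and glial list.

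The interstitial cell list held 3 genes, and all 3 were called higher without overlap between the groups (18.4% of all tested genes were called higher). Of the 3, 2 had a WT mean under the filter, so they passed it only through the mutants and had to differ in mean. Cacna1h, a T-type calcium channel of pacemaking, was the most abundant, with 8.28, 7.37 and 4.80 FPKM in Gm31629-/- mice and 1.59, 1.79 and 2.13 FPKM in WT mice (log2 fold change 1.44, SE 0.21, limma adjusted p = 0.00245). Kcnn3, the small-conductance channel of PDGFRA-positive cells through which purines relax the muscle, had 1.35, 2.53 and 0.818 FPKM against 0.0207, 0.0319 and 0 FPKM (log2 fold change 1.28, limma adjusted p = 0.00640). The interstitial cell markers did not move as 1 set. Kit was 7.57, 5.49 and 3.03 FPKM in the mutants and 4.69, 4.88 and 5.45 FPKM in WT mice, and the chloride channel Ano1 was 5.36, 8.00 and 6.14 FPKM against 6.83, 6.19 and 6.54 FPKM, with overlapping groups for both. Of the 5 interstitial markers, 2 were called higher, Etv1 and Pdgfra. Etv1 had 1.57, 2.03 and 0.475 FPKM in the mutants and 0.106, 0.0961 and 0.0760 FPKM in WT mice, so it passed the filter only through the mutants. Which cells gave the Kit and Ano1 signal was not tested, so their overlap does not show equal numbers of interstitial cells.

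The neural and glial list held 36 genes, of which 35 were measured and Scn10a was not analysed here. In 26 of the 35, every mutant was above every WT mouse (31% of all listed genes). In none was the reverse seen (12.6% of all listed genes), and in 9 the groups overlapped. Only 9 passed the filter, and 6 of them had a WT mean under it. Of the 9, limma called 4 higher (18.4% of all tested genes) and none lower (4.64% of all tested genes). None of the 9 was lower at an unadjusted p under 0.05 either, by limma or by voom. The median log2 fold change of the 9 was 0.75, with a range from -0.18 to 2.58. The summed level of the list was 25.8, 30.3 and 15.2 FPKM in Gm31629-/- mice and 3.25, 3.47 and 4.72 FPKM in WT mice, a ratio of 6.23. The neuron markers had a ratio of summed levels of 39.5, with 10 of 11 tested markers called higher (18.4% of all tested genes). Of the 6 glial markers 5 were called higher, and the sixth, Erbb3, which epithelium also makes, was lower without being called. All of these called neuron and glial markers had a WT mean under the filter, so they had to differ in mean and their calls are a description. Gm31629-/- mouse 3 had the lowest level of both the channel list and the neuron markers among the mutants. The part of neural content in the channel values was not tested.

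Cacng7, a gamma subunit of calcium channels and of glutamate receptors, was the leading member of this list, with 5.52, 10.5 and 7.14 FPKM in Gm31629-/- mice and 0.244, 0.478 and 0.567 FPKM in WT mice (log2 fold change 2.58, SE 0.24, limma adjusted p = 0.000484). Kcnip4, which modulates transient potassium currents, had 2.98, 1.96 and 0.450 FPKM against 0.134, 0.0612 and 0 FPKM. Its log2 fold change was 1.28 (limma adjusted p = 0.0237), and it was called in 1 of the 6 fits that left out a mouse. Without Gm31629-/- mouse 1 its log2 fold change was 0.96. Kcnj10, the inward rectifier of glia, had 0.905, 2.72 and 0.906 FPKM against 0.120, 0.103 and 0.0787 FPKM (log2 fold change 1.11, limma adjusted p = 0.0161). Cacna1b, the N-type calcium channel of nerve terminals, had 2.20, 2.72 and 1.65 FPKM against 0.538, 0.547 and 0.508 FPKM (log2 fold change 1.04, limma adjusted p = 0.00367). The 5 tested members that were not called were Cacna1a, Cacna1e, Scn3b, Cacna2d2 and Scn2b. Among these, Scn3b passed on p but not on fold (log2 fold change 0.71, limma adjusted p = 0.0255). Cacna2d2 had 1.01, 0.60 and 0.678 FPKM in the mutants and 0.816, 1.31 and 0.884 FPKM in WT mice, and Scn2b had 0.794, 1.35 and 0.514 FPKM against 0.766, 0.0716 and 1.65 FPKM. Both had overlapping groups (log2 fold changes -0.18 and 0.12, limma adjusted p = 0.419 and 0.802).

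The other 26 members of this list lay below the filter, most of the channels of the axon among them. Kcnq3, a subunit of the M-current that damps repetitive firing, had 176, 128 and 31 fragments in Gm31629-/- mice and 0 in all WT mice. Kcna2, a delayed rectifier beside the nodes of axons, had 254, 153 and 73 fragments in the mutants and 0, 3 and 0 in WT mice. Scn11a, a sodium channel of sensory and enteric neurons, had 86, 172 and 51 fragments against 3, 4 and 0. Scn9a had 53, 48 and 3 fragments against 0 in all WT mice, so in Gm31629-/- mouse 3 it was at the limit of 3 fragments that a value of 0 allows. Scn3a had 169, 133 and 28 fragments in the mutants and was the best covered of these genes in WT mice, with 16, 7 and 7.

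The members on no list included Kcne4, whose rise came after that of Kcnj8 on the log2(FPKM + 1) scale and ahead of it with a pseudocount of 0.1 (6.50 against 5.88). Kcne4, a small subunit that inhibits Kcnq1 and voltage-gated potassium channels, had 14.8, 24.0 and 8.97 FPKM in Gm31629-/- mice and 0.0814, 0.105 and 0.0200 FPKM in WT mice (log2 fold change 3.89, SE 0.32, limma adjusted p = 0.000336). It thus moved opposite to the epithelial subunit Kcne3, and its mean was 232-fold higher in the mutants (62.3-fold for Kcnj8), on 438 to 1179 fragments in the mutants and 1 to 5 in WT mice. Scn7a, a sodium-sensing channel of glia, had 4.15, 4.28 and 1.64 FPKM against 0.00737, 0.106 and 0 FPKM (log2 fold change 2.0, limma adjusted p = 0.00196). Kcns1, a silent subunit that modifies delayed rectifiers, had 3.45, 3.80 and 0.783 FPKM and 0 in all WT mice. Against the limit of 3 fragments per WT library, its mean was at least 44.6-fold higher in the mutants (limma adjusted p = 0.00886). Kcne4, Scn7a and Kcns1 passed the filter only through the mutants, so they had to differ in mean and their p adds no support. Other called genes were Kcnab2, Cacnb1, Kcns3, Cacna1d and Kcnj2, with log2 fold changes from 1.06 to 1.58. Kcnk3, Kcnip3, Kcnh6 and Kcnf1 were not called, and of these Kcnk3 (log2 fold change 0.97, limma adjusted p = 0.00450) and Kcnip3 (0.79, limma adjusted p = 0.00861) passed on p alone.

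The channels of striated muscle and lymphocytes were rare. In the striated list, the L-type pore Cacna1s had 2, 1 and 0 fragments in Gm31629-/- mice and 0 in WT mice, and its gamma subunit Cacng1 had 2, 1 and 6 against 0, 1 and 0, so both were at or near the detection limit. Cacng6 had 74, 12 and 21 fragments in the mutants and 1, 0 and 0 in WT mice, and the sodium channel Scn4a had 13, 2 and 10 against 0, 0 and 1. Of the 7 skeletal muscle markers listed, 4 were higher in the mutants without overlap and 3 overlapped. Of the 3 that were tested, Ckm was called higher, with 1.46, 1.00 and 1.42 FPKM in the mutants and 0, 0.0191 and 0.0183 FPKM in WT mice (log2 fold change 1.17, limma adjusted p = 0.00142). Acta1, the most abundant of them, was 104.0, 38.3 and 6.24 FPKM in the mutants and 10.9, 13.1 and 8.00 FPKM in WT mice, with overlap, and Mylpf overlapped as well. Kcna3, the channel that sets the membrane potential of T cells, had 5, 5 and 1 fragments in Gm31629-/- mice and 0 in all WT mice. It was higher by voom over all genes (log2 fold change 2.83, voom adjusted p = 0.0124), on these few fragments. Of 8 lymphocyte markers 6 were called higher, and Cd3e and Cd3g were not.

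The 89 channel genes below the filter were compared by fragments. In 52 of the 89 every mutant was above every WT mouse, against 25% of all genes below the filter, and in 1, Kcnk16, every mutant was below, against 2.55%. Kcnk16 had 3, 0 and 0 fragments in the mutants and 4, 5 and 4 in WT mice. When limma's voom was run on the recovered fragments of all genes, an alternative chosen after seeing how many channel genes were below the filter, 50 of the 89 were called higher, against 19.4% of such genes, and none was called lower, against 1.24% (1 was lower at an unadjusted p under 0.05). The other 39 were neither. Among members on no list, Kcna6, a delayed rectifier of neurons, had 77, 143 and 49 fragments in the mutants and 0, 1 and 0 in WT mice, but 2355 of its 5945 exon bases overlap a gene on the opposite strand. Kcnc4 had 57, 57 and 17 fragments and Kcnj12 60, 70 and 17, with 0 in all WT mice for both. These 3 genes were chosen after their values were seen. Of all 131 channel genes, 47, 42 and 51 were at 0 in WT mice 1 to 3 and 5, 8 and 16 in Gm31629-/- mice 1 to 3. Gm31629-/- mouse 3 was the lowest mutant in 61 of the 83 channel genes whose mutants were all above WT.

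**Figure D3:**
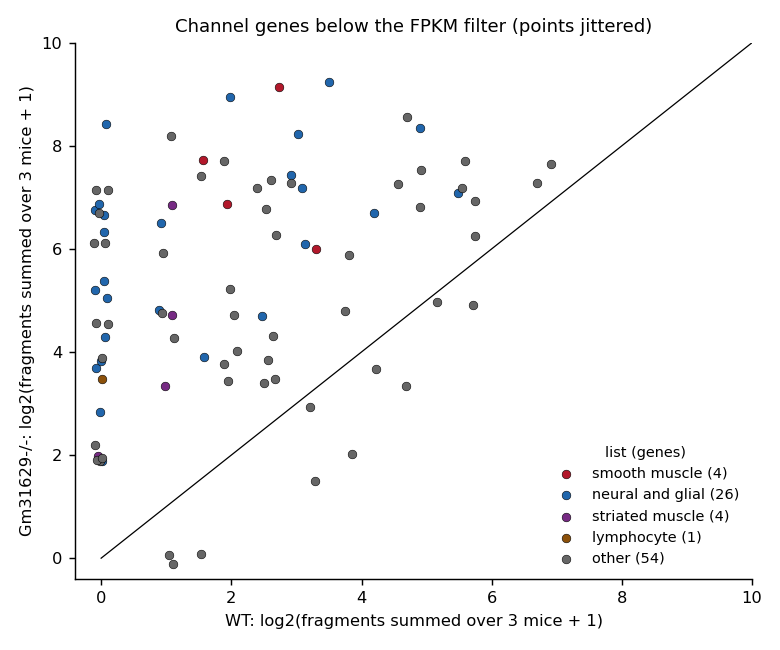
Fragments summed over the 3 mice of each group, as log2(sum + 1), for the 89 channel genes below the filter, with WT on the horizontal and Gm31629-/- on the vertical axis (points slightly jittered, colored by list, line of equality drawn). Most points lie above the line, and the column of points at the left edge holds genes with 0 fragments in all WT mice.

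The channel repertoire of the tissue changed in makeup more than in total. The summed level of all channel genes was 271.2, 328.7 and 236.3 FPKM in Gm31629-/- mice and 257.8, 263.4 and 275.3 FPKM in WT mice, with overlapping groups. The epithelial list made up 81.8%, 80.2% and 78.2% of this sum in WT mice and 27.9%, 22.0% and 46.2% in the mutants. The smooth muscle list made up 0.682%, 1.43% and 0.936% in WT mice and 26.1%, 35.1% and 20.5% in the mutants, and the neural and glial list 1.26%, 1.32% and 1.72% against 9.51%, 9.21% and 6.45%. Gm31629-/- mouse 3 was the mutant nearest to WT in all 3 shares. By family, the changes in both directions ran within families. Of 5 KCNE subunits, 2 were tested, and Kcne3 was called lower and Kcne4 higher, and of 7 ether-a-go-go and ERG genes, 3 were tested, with Kcnh3 called lower, Kcnh2 higher and Kcnh6 neither. Of the 10 calcium channel pores, 6 were tested, of which 4 were called higher and none lower. Among the called pores, Cacna1c and Cacna1d passed the filter only through the mutants. Of the 13 tandem-pore channels, 4 were tested, of which 1 was called lower and none higher. Over all tested genes 18.4% were called higher and 4.64% lower.

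**Figure D4:**
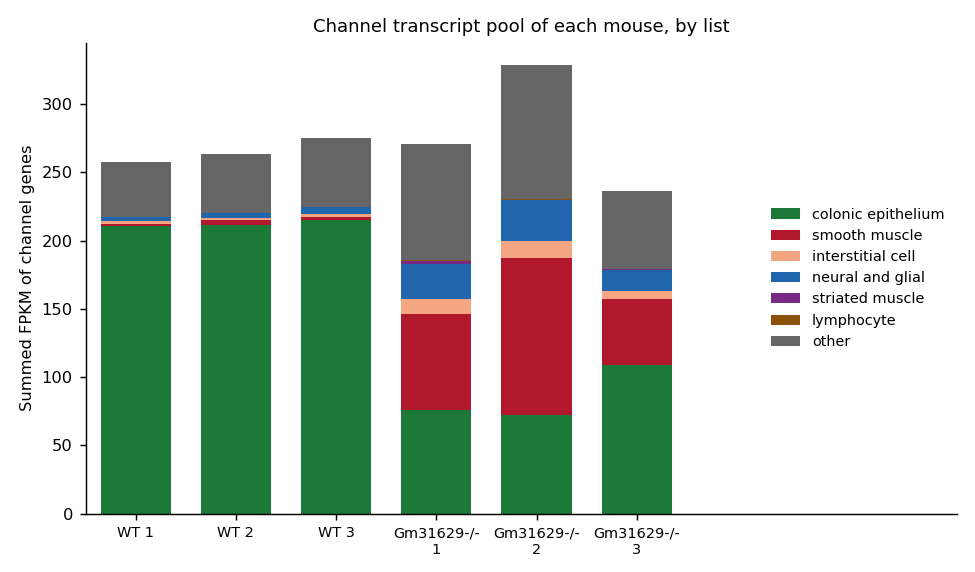
Summed FPKM of the 131 channel genes in each mouse, divided by list (stacked bars, axis from 0). The bars are of similar height, between 236.3 and 328.7 FPKM, and the epithelial part (green) takes 78.2% to 81.8% of each WT bar and 22.0% to 46.2% of each Gm31629-/- bar.

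Partner genes of the same transport pathways were taken from 2 further lists. Among 7 genes of epithelial transport, Cftr, the apical chloride channel whose current the Kcnq1 channel sustains, was called lower, with 4.95, 0.614 and 1.63 FPKM in Gm31629-/- mice and 8.44, 6.51 and 5.91 FPKM in WT mice (log2 fold change -1.43, limma adjusted p = 0.0361). By these values Cftr falls just short of the fold threshold without Gm31629-/- mouse 2. The 3 subunits of the epithelial sodium channel, which take up sodium and are no members by the rule, were called higher. Scnn1a had 79.2, 37.3 and 84.7 FPKM against 35.5, 26.1 and 24.3 FPKM (log2 fold change 1.13, limma adjusted p = 0.0275). Scnn1b had 18.7, 5.72 and 9.78 FPKM against 4.89, 3.71 and 3.68 FPKM (log2 fold change 1.15, limma adjusted p = 0.0396). Scnn1g changed by 2.70 (limma adjusted p = 0.000449) but passed the filter only through the mutants. The changes of Scnn1a and Scnn1b were close to the fold threshold. By the values printed, both fall short of it without Gm31629-/- mouse 1, so these calls rest on that mouse. The chloride importer Slc12a2 and the sodium pump subunit Atp1b1 were neither. Of 16 channel partners measured, 9 were tested and 2 were called higher, Abcc9 and Fgf13, an intracellular modulator of sodium channels (log2 fold change 2.0, limma adjusted p = 0.00593). Over all tested genes 18.4% were called higher and 4.64% lower, so 2 of 9 partners is near the share of all genes. The pacemaker channel gene Hcn2 was 4.95, 2.17 and 4.07 FPKM in the mutants and 6.19, 6.29 and 7.39 FPKM in WT mice and passed on p but not on fold (log2 fold change -0.73, limma adjusted p = 0.0485).

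The scale by which libraries are compared decided the direction of many of these genes. As deposited, and with scaling to the epithelial markers, Kcnj8, Kcnmb1, Cacna1c, Cacna2d1, Kcnh2 and Kcnma1 were higher in the mutants, and with scaling to the smooth muscle markers their log2 fold changes lay between -2.59 and -0.14. The median of all tested genes in that scaling, -4.43, was below each of these 6 values. Kcne4 kept a positive value in all 3 scalings (3.89, 4.22 and 0.79), and Kcnq1, Kcne3, Kcnn4 and Kcnh3 kept a negative one.

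**Figure D5:**
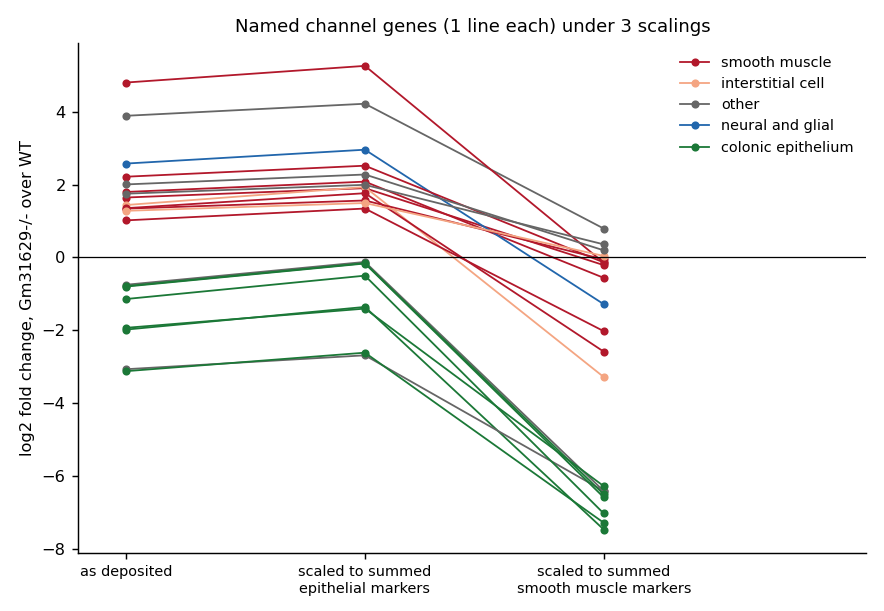
Log2 fold change of Gm31629-/- over WT for the 21 named and tested channel genes (1 line each, colored by list) as deposited, with every library scaled to its summed epithelial markers, and with every library scaled to its summed smooth muscle markers. The green epithelial genes lie under 0 throughout, and most lines of the other lists cross to under 0 in the third scaling, as Kcnj8 does with 4.80, 5.26 and -0.14.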

How the data were processed

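RNA-Seq was carried out on colon tissue of 3 Gm31629-/- and 3 WT mice, grouped by the genotype in the labels. Submitters' processing notes name HISAT2 2.1.0, HTSeq 0.6.0 and GRCm38, and the authors deposited FPKM values, 1 column per mouse. The methods describe RNA pooled from the mice, while the table holds a column per mouse, and the columns were treated as separate mice. Whole fragments were recovered from FPKM with exon lengths of GENCODE M21, which matched 27488 identifiers, and 96.3% to 97.2% of the values up to 20 fragments lay within 0.1 of a whole number. The fragments summed over genes exceeded the recovered depth in every library (cause not tested). A value of 0 allows up to 3 fragments, for counting error only.

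The test was limma 3.58.1 (R 4.3.3), by lmFit and trended eBayes, applied to log2(FPKM + 1) of genes averaging 0.5 FPKM or more, without a replicate block. Because the values are FPKM, limma stood in for DEGseq, which the methods name, and the fold threshold was kept. The scripts were tested on simulated data. Log2 values correlated at 0.979 to 0.985 among WT mice and at 0.915 to 0.937 among mutants, and replicates differed by more than counting noise, so none was counted as a repeat. The members, gene lists and markers were chosen with earlier results of these data known, so lists are described by counts and medians. Genes were named with values if they belonged to the epithelial, smooth muscle, interstitial, striated or lymphocyte list, were among the 10 called genes with the largest change in either direction without overlap, or had a group mean of at least 10 FPKM. Other genes were named after their values were seen. Some genes that this rule takes are not reported here, and they stay in the counts and sums of their lists. The enteroendocrine markers had 2 of 6 called higher (median log2 fold change 0.21) and the skeletal muscle markers 1 of 3 tested. Alternatives were no filter, a filter at 5 FPKM, a pseudocount of 0.1, TPM and median ratio scaling, scaling to epithelial or smooth muscle markers, eBayes without a trend, the replicate block, each mouse left out in turn, and voom on recovered fragments. Figures were drawn with matplotlib 3.10.9.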

Additional observations from a re-analysis of the deposited data

How the results depend on the processing

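The counts of channel genes called, 25 higher and 5 lower, lay between 21 and 29 higher and between 4 and 5 lower with each mouse left out in turn. A mean FPKM of at least 5 left 3 higher, limma's voom without a filter gave 80 higher, and scaling to the smooth muscle markers gave 0 higher (1 at an unadjusted limma p under 0.05) and 22 lower, with the median of all tested genes at -4.43. The median of the epithelial list (-1.54) was -0.93 with epithelial marker scaling and -6.81 with smooth muscle marker scaling, and -1.58 to -1.40 with each mouse left out. The median of the smooth muscle list (1.64) was 3.82 with a pseudocount of 0.1, 1.34 without a filter, 4.80 at a mean FPKM of at least 5, 5.41 with voom and -0.29 with smooth muscle marker scaling, and 1.46 to 1.88 with each mouse left out. The median of the neural and glial list (0.75) was 1.93 with a pseudocount of 0.1, 0.23 without a filter, 2.52 with voom and -1.28 with smooth muscle marker scaling. It was 0.83 to 1.02 with each mouse left out, and a mean FPKM of at least 5 gave it no value.

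Under smooth muscle marker scaling, log2 fold changes turned negative for Cacna1c (-0.21), Cacna1h (-3.28), Cacna2d1 (-0.56), Cacng7 (-1.28), Kcnd3 (-0.055), Kcnh2 (-2.59), Kcnj8 (-0.14), Kcnma1 (-2.02) and Kcnmb1 (-0.14). Whether tissue content or expression accounts for this was not tested. Of the 21 named and tested genes, 18 were called, and 17 of these kept their call under median ratio scaling (not Kcnma1) and 17 under epithelial marker scaling (not Kcnk1). The 3 that were not called stayed so under both, and under epithelial marker scaling Cacnb3 and Kcnk6 no longer passed on p either (limma adjusted p = 0.641 and 0.441). With the replicate number as a block, all 18 kept their call, and the counts were 25 higher and 5 lower. Same-numbered mice deviated from their group means with correlations of 0.036, -0.11 and 0.014, and not every mouse correlated best with its own number, so the numbers were not taken as pairs. Depth limits the 89 genes below the filter, where a WT value of 0 allows 3 fragments.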
